A study of Homo sapiens with 4 samples.

Results

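The short arm of chromosome 10 (10p) was examined gene by gene in NK-92 cells, a human line of natural killer (NK) lymphocytes grown with interleukin 2 (IL-2). The set held 59 named genes of 10p, of 61860 gene identifiers counted in all. They were chosen by the lower reading of the edited line over this arm, that is, selected on the line difference over the 4 libraries, which is therefore described here with no test. The ΔOGT-ISS line, written dOGT-ISS in the plots, had an intronic splicing silencer of OGT removed with CRISPR-Cas9, and OGT encodes the enzyme that adds O-GlcNAc to proteins. The wild-type line (WT) was unedited. Each line gave 2 libraries, which received IL-2 at 48 h and at 24 h before extraction, so there were 4 libraries and 1 per line and time. All 4 were grown in medium that itself contained IL-2, and the library titles name IL-2 only for the 24 h libraries. The labels do not say whether the edited line was 1 clone or a pool, and only 1 edited line was compared, so the edit and any other difference between the lines cannot be told apart.

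A chromosome arm carries genes of unrelated function that share only their place. When the number of copies of an arm differs between 2 cell lines, transcript levels of its genes usually move together, roughly in proportion to the copies, while single genes can depart from the shared level through their own regulation. NK-92 is an aneuploid lymphoma line. Genes of 10p matter to lymphocytes: IL2RA and IL15RA encode receptor chains for IL-2 and IL-15, PRKCQ encodes protein kinase C theta, which acts below the antigen receptor of T cells, and GATA3 and ZEB1 encode transcription factors of lymphocyte development. Copy number was not measured here. For scale, 2 copies in place of 3 correspond to a log2 ratio of -0.58, 1 in place of 2 to -1.0 and 3 in place of 4 to -0.42.

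Libraries held 10889986 (WT) and 11305599 (ΔOGT-ISS) counts at 48 h, and 24809269 and 28576566 counts at 24 h, so the IL-2 time and the depth cannot be told apart. Levels are given in CPM (reads scaled to the library total with TMM factors). The 8 NK markers summed, in ΔOGT-ISS and then WT, to 2300 and 2475 CPM at 48 h and to 2088 and 3851 CPM at 24 h. The 3 B cell, 3 erythroid and 3 epithelial markers summed to at most 1.79, 0.189 and 0.876 CPM. Of 6 T cell markers only CD3E passed the filter on low counts, at 187 to 316 CPM. The 5 myeloid markers summed, in ΔOGT-ISS and then WT, to 604 and 818 CPM at 48 h and to 43.4 and 307 CPM at 24 h, mostly S100A9, while CD14 and LYZ had at most 5 counts in any library. Their part in the results was not tested. OGT itself had a log2 line difference of -0.19 (SE 0.16, edgeR adjusted p = 0.862). Gene counts do not check the deletion of the silencer.

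The members were lower in ΔOGT-ISS by a median log2 ratio of -0.67 at 48 h and -0.76 at 24 h over the 56 that passed the filter on low counts. DIP2C, ASB13 and MSRB2 did not pass it, with at most 4 counts in any library. Over the 51 members whose mean reached 5 CPM the medians were -0.69 and -0.79, and the mean of both times had a median of -0.76 with an SD of 0.46 between genes. Of those 51, 45 had a ratio below 0 at both times. Over 9083 protein-coding genes at the same level the median was 0.00, the SD was 0.44, and 29.6% were below 0 at both times. In bulk RNA, fewer cells carrying a transcript and less of it per cell cannot be told apart.

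**Figure D1:**
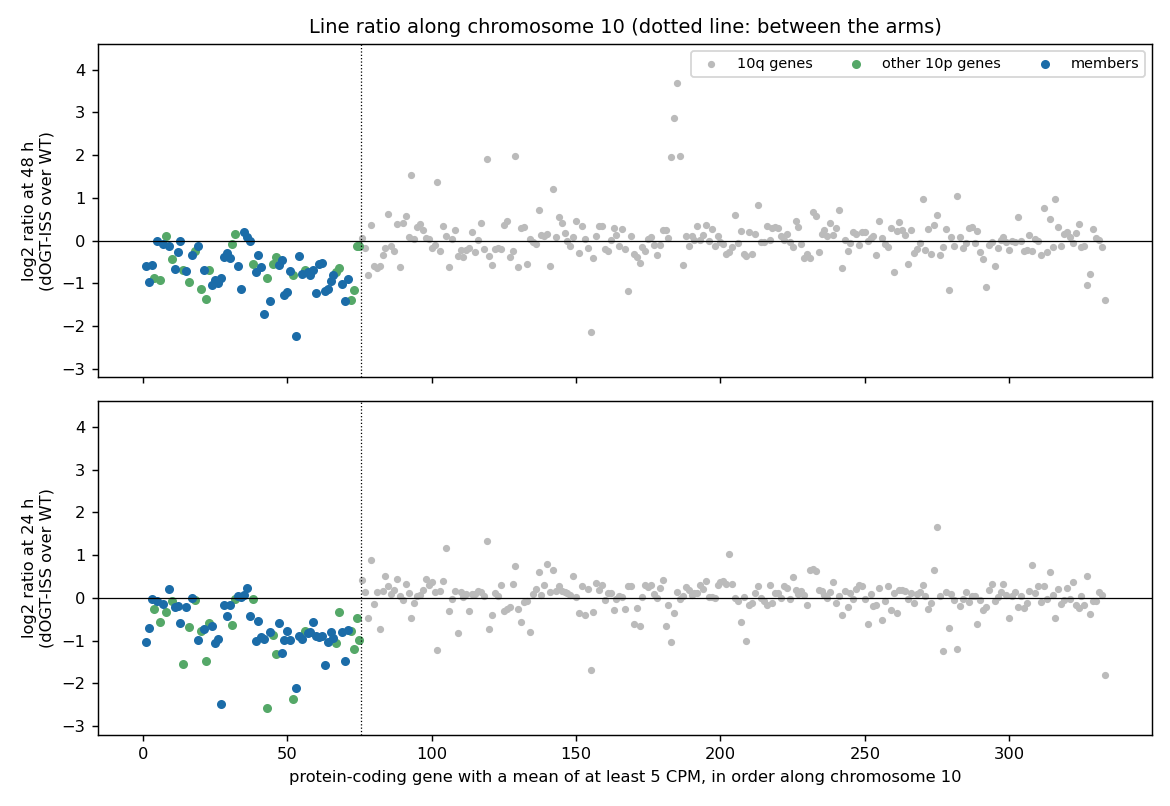
Log2 ratio of ΔOGT-ISS over WT (vertical axis) for each protein-coding gene of chromosome 10 with a mean of at least 5 CPM, in order along the chromosome (horizontal axis), at 48 h (top) and 24 h (bottom); blue points are the 51 members, green points the 24 other 10p genes and grey points the 258 genes of the long arm. Most 10p points lie below 0 up to the dotted line between the arms, and the long-arm points scatter about 0.

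The lower ratios were shared by genes of the arm that are not in the set and were not seen over the long arm. The arm itself was chosen for its lower reading in these same libraries. Its other genes are therefore described with no test and are no separate support. The 24 other 10p genes with at least 5 CPM had medians of -0.68 at 48 h and -0.72 at 24 h, and 22 of them were below 0 at both times. The 258 genes of the long arm (10q) had medians of 0.02 and 0.08. In 13 consecutive groups of up to 20 genes along 10q, the medians of the mean ratio ran from -0.08 to 0.17. On the side of the centromere 4 tested genes lie past CCNY, the last member. ZNF248, the first of them, had -1.38 at 48 h and -0.78 at 24 h. Of the 3 tested genes beyond it, ZNF25 had a mean ratio of -1.18, whereas at the 2 times ZNF33A had -0.12 and -0.46 and ZNF37A -0.12 and -0.99, and at 48 h the counting intervals of ZNF33A and ZNF37A held a ratio of 1. GJD4, which lies next to CCNY, had 0 to 2 counts. On the side of the telomere TUBB8 had no count in any library, where 0 allows up to 3 counts, or 0.103 to 0.284 CPM, so that side has no gene beyond ZMYND11 to compare.

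The shift was not even along the arm. Among the members it was close to the arm's full size over ZMYND11 and LARP4B at the tip and small from GTPBP4 to PRKCQ. It was full again from KIN to OPTN, small from MCM10 to NMT2, and full from RSU1 to CCNY. These 5 stretches were delimited after the ratios had been seen, so their contrast has no test and the gaps between them are fixed by that choice. The 34 members of the 3 stretches of full size with at least 5 CPM had a median mean ratio of -0.86 (SD 0.34), and all 34 were below 0 at both times. The 17 of the 2 stretches of smaller shift had a median of -0.28 (SD 0.20), and 11 of 17 were below 0 at both times. From GTPBP4 to PRKCQ the smaller shift holds for members only: the 6 other genes there with at least 5 CPM had a median of -0.65. From MCM10 to NMT2 the 2 such genes had a median of -0.14.

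From GTPBP4 to PRKCQ (chromosome 10, 988019 to 6580301, GRCh38) the 9 tested members had medians of -0.27 at 48 h and -0.14 at 24 h. From MCM10 to NMT2 (13161554 to 15168693) the 9 tested members had medians of -0.30 and 0.02, so the sign of that stretch changed with the time. From RSU1 to CCNY (16590611 to 35572669) the 26 members with at least 5 CPM had medians of -0.81 and -0.90, and their mean ratios ran from -2.17 to -0.45. Summed over genes, counts of the 56 members gave a ratio of 0.640 at 48 h and 0.687 at 24 h. The same ratio was 0.696 and 0.922 from GTPBP4 to PRKCQ, and 0.583 and 0.539 from RSU1 to CCNY.

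**Figure D2:**
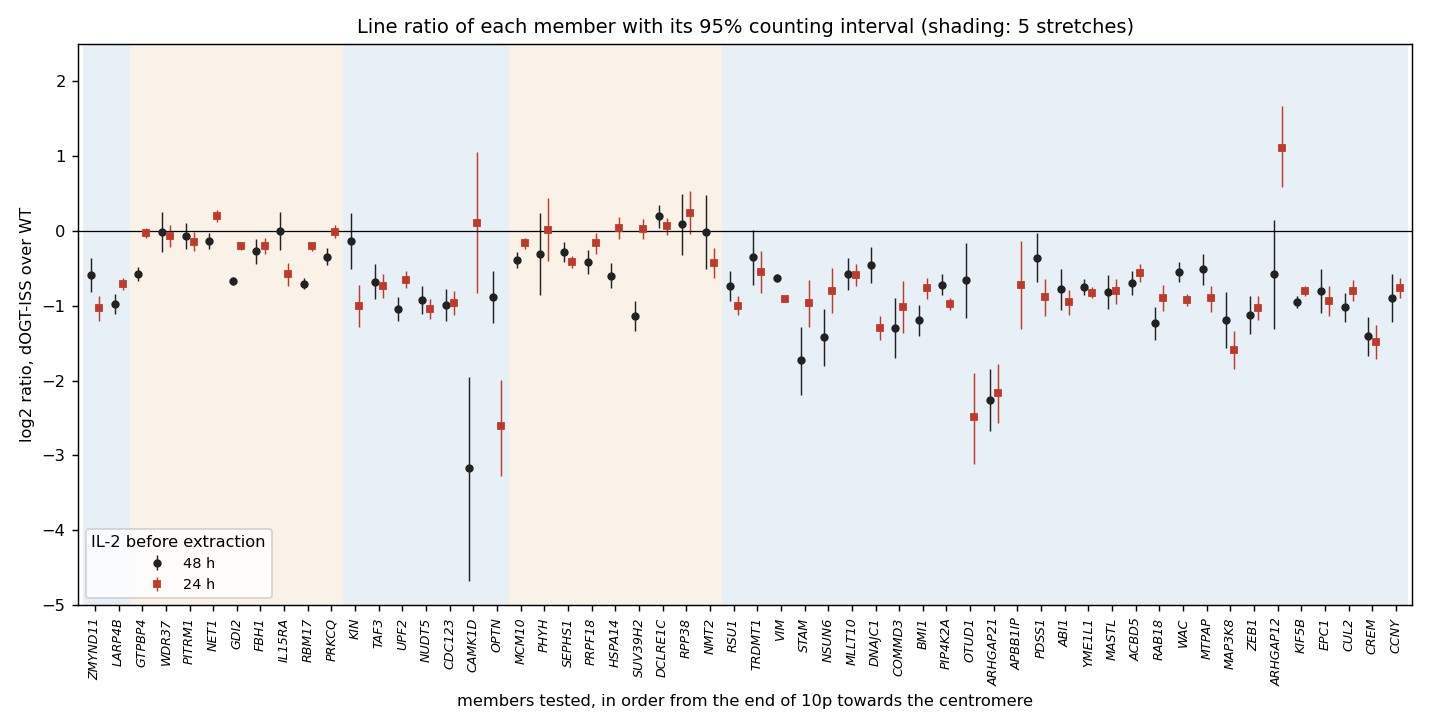
Log2 ratio of ΔOGT-ISS over WT (vertical axis) for the 56 tested members in order from the tip of 10p towards the centromere (horizontal axis), at 48 h (black circles) and 24 h (red squares); bars are exact 95% counting intervals and shading marks the 5 stretches, blue for the lower and orange for the smaller shifts. Orange stretches sit nearer 0; APBB1IP at 48 h has no point because WT had 0 counts.

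Paired levels are given for ΔOGT-ISS first and WT second, and paired log2 ratios for 48 h first and 24 h second. At the tip, ZMYND11, a reader of methylated histone H3, had ratios of -0.59 and -1.03, and LARP4B, an RNA-binding protein that stabilises messages, -0.97 and -0.71. From GTPBP4 to PRKCQ the 4 most abundant members, GDI2, RBM17, GTPBP4 and NET1, had lower ratios at 48 h than at 24 h. GTPBP4, a GTPase of ribosome assembly, had 148 and 221 CPM in ΔOGT-ISS and WT at 48 h and 124 and 126 CPM at 24 h, log2 -0.58 and -0.03. GDI2 had 424 and 672 CPM and then 254 and 292 CPM, log2 -0.66 and -0.20, and RBM17, a splicing factor, had -0.70 and -0.21. FBH1, a DNA helicase of recombination, had -0.27 and -0.20. Thus at 48 h GDI2 and RBM17 read like the median member, and at 24 h neither did.

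The 6 members with at least 5 CPM from KIN to OPTN (7750962 to 13138308) were all below 0 at both times. TAF3, a subunit of the general transcription factor TFIID, had -0.68 and -0.73. UPF2, of nonsense-mediated decay, had 42.8 and 88.0 CPM at 48 h and 38.2 and 60.1 CPM at 24 h, log2 -1.04 and -0.65. NUDT5 had -0.92 and -1.04 and CDC123 -0.98 and -0.96. From MCM10 to NMT2, MCM10, a replication initiation factor, had 111 and 145 CPM and then 93.4 and 105 CPM, log2 -0.39 and -0.17. SEPHS1, related to selenophosphate synthetase, had -0.28 and -0.42, PRPF18 -0.42 and -0.16, and HSPA14, a chaperone at the ribosome, -0.59 and 0.04.

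Within the longest stretch, RSU1 to CCNY, the members with at least 20 CPM had a smaller spread of ratios than all those with at least 5 CPM. KIF5B, the heavy chain of conventional kinesin, had read counts of 1992 and 3578 at 48 h and 2899 and 4291 at 24 h, log2 -0.96 and -0.80. PIP4K2A, a phosphoinositide kinase, had 62.7 and 103 CPM and then 73.3 and 144 CPM, log2 -0.72 and -0.98. ACBD5, a peroxisomal tether, had -0.69 and -0.56, and CUL2, the cullin of the VHL ubiquitin ligase, -1.02 and -0.80. RAB18, of lipid droplets and the endoplasmic reticulum, had -1.23 and -0.89. The 18 members of this stretch with at least 20 CPM had a median mean ratio of -0.85 and an SD of 0.19, against 0.35 over the 26 with at least 5 CPM.

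Other members of that stretch also had ratios below 0 at both times. RSU1, a partner of integrin-linked kinase, had -0.73 and -0.99, ABI1, of the WAVE actin complex, -0.78 and -0.95, and EPC1, of the NuA4 histone acetyltransferase, -0.80 and -0.93. MLLT10, a cofactor of the H3K79 methyltransferase, had -0.58 and -0.59, and MTPAP, the mitochondrial poly(A) polymerase, -0.51 and -0.90. PDSS1, which makes the side chain of coenzyme Q, had -0.35 and -0.88. NSUN6 and TRDMT1, both RNA cytosine methyltransferases, differed: NSUN6 had -1.40 and -0.79 and TRDMT1 -0.35 and -0.55.

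The unevenness was set against counting error. At 48 h, 25 of 56 members had an exact 95% counting interval that held the ratio of the summed counts, and at the deeper 24 h libraries 9 of 56 did. The others lay 17 below and 14 above that ratio at 48 h, and 30 below and 17 above at 24 h. The summed ratio weighs abundant members most. It was log2 -0.64 and -0.54 at the 2 times, against member medians of -0.67 and -0.76. At each time 45 of 56 intervals lay wholly below 1 and 2 wholly above it. From RSU1 to CCNY the intervals of 11 of 29 members at 48 h and 18 of 29 at 24 h held the ratio of that stretch's own summed counts. These intervals cover counting error only and not the spread between cultures, which 1 library per line and time cannot give.

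Gene by gene, the ratios at 48 h and 24 h, which come from different libraries, correlated with Pearson r = 0.61 and a Spearman coefficient of 0.56 over the 51 members, and r = 0.53 without the 2 farthest genes. The correlation is across genes, which are not independent replicates, and both ratios chose the members. Over all 9083 protein-coding genes r was 0.45. Within the 3 lower stretches r was 0.39 over 34 genes and 0.17 without the 2 farthest, and within the 2 smaller-shift stretches it was -0.06 over 17 genes. Across the 51 members the mean ratio had a Spearman coefficient of 0.36 with the mean CPM, 0.01 with gene length in the deposited table and -0.54 with the position along the arm.

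Genes outside the set that lie inside the stretches did not all read like their neighbours. Between GTPBP4 and PRKCQ lie 6 other genes with at least 5 CPM, and 4 of them had mean ratios below -0.5: IDI1, an enzyme of isoprenoid synthesis, PFKP and PFKFB3, enzymes of glycolysis and its control, and IL2RA. KLF6 and TASOR2 stood at -0.12 and -0.25. IL2RA, the alpha chain of the IL-2 receptor, had 105 and 169 CPM at 48 h and 39.9 and 117 CPM at 24 h. Its log2 ratios were -0.68 and -1.55, against 0.00 and -0.58 for IL15RA, the alpha chain of the IL-15 receptor. GATA3, between KIN and OPTN, was counted at 20.0 and 51.4 CPM at 48 h and at 13.2 and 36.6 CPM at 24 h, log2 ratios of -1.36 and -1.47. Of the other 10p genes with at least 5 CPM, the lowest mean ratios were in SLC39A12 (-1.73), KIAA1217 (-1.58) and GATA3 (-1.41), and the highest in MSANTD7 (0.07), KLF6 (-0.12) and SFMBT2 (-0.15).

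Departures were measured as a member's log2 ratio minus the median of the 51 members at that time. At both times 25 of 51 stayed within 0.5 of the median, and 36 of 51 had the same sign of departure at both times. ARHGAP21 and CREM lay more than 0.5 below the median at both times. PITRM1, WDR37, NET1, DCLRE1C and RPP38 lay more than 0.5 above it at both times, and all 5 are in the 2 stretches of smaller shift. Those stretches were delimited after these ratios had been seen.

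**Figure D3:**
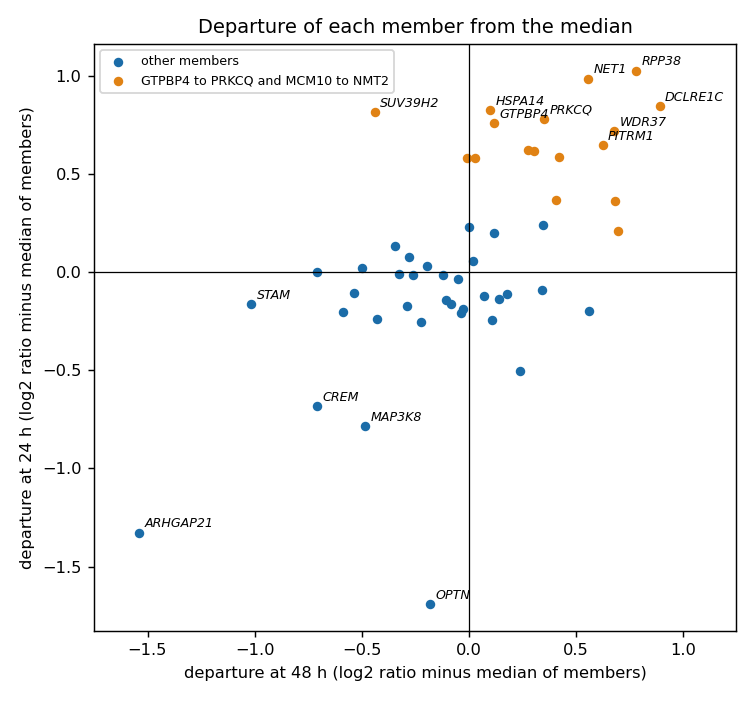
Departure of each of the 51 members from the members' median log2 ratio at 48 h (horizontal axis) and 24 h (vertical axis); orange points are members of the 2 stretches of smaller shift and blue points the rest. ARHGAP21 lies farthest to the lower left, CREM next to it among genes low at both times, and the orange points lie above 0 at 24 h.

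ARHGAP21, which encodes a GTPase activating protein of the Golgi and cell junctions, was the lowest member. It had 5.43 and 25.9 CPM at 48 h and 2.41 and 10.8 CPM at 24 h, so the lines did not overlap. The ratios were 0.156 to 0.277 and 0.169 to 0.292 by their 95% counting intervals, log2 -2.23 and -2.11. CREM encodes a transcription factor of the cAMP response, related to CREB1. It was counted at 14.5 and 38.6 CPM at 48 h and at 7.83 and 21.9 CPM at 24 h. Its counting intervals were 0.313 to 0.452 and 0.305 to 0.418, log2 ratios of -1.40 and -1.47. From RSU1 to CCNY, STAM also lay below CREM at 48 h, with -1.71, and NSUN6 had -1.40 as CREM did. At 24 h OTUD1 lay below both ARHGAP21 and CREM, and MAP3K8 below CREM.

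The bases before the start of these 2 genes and of DCLRE1C and RPP38, which have the highest mean ratios of the 51, are shown because the 4 genes lie far from the median in opposite directions at both times. The sequences come from RefSeq (GRCh38.p14) and end before the first base of the gene. Capitals mark 3 motifs on either strand: the CCAAT box, read as CCAAT or ATTGG, the GC box, read as GGGCGG or CCGCCC, and the TATA box, read as TATAAA or TTTATA. The ARHGAP21 window is chr10:24723888-24724137 on the minus strand, that of CREM chr10:35126596-35126790 on the plus strand, that of DCLRE1C chr10:14954433-14954682 on the minus strand and that of RPP38 chr10:15097105-15097179 on the plus strand.
ARHGAP21: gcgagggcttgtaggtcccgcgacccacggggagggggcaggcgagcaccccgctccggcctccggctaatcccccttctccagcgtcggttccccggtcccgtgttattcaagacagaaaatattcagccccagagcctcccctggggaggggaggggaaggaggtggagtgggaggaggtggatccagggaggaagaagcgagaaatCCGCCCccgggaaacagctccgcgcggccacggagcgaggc
CREM: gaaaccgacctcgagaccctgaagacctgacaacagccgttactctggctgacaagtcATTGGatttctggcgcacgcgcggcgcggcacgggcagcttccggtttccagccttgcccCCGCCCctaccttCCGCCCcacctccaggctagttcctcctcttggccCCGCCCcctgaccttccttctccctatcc
DCLRE1C: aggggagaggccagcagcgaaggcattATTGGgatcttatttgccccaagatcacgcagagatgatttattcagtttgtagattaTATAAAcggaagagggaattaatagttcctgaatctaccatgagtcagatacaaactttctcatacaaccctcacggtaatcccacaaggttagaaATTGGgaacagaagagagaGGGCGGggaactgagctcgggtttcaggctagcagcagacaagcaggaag
RPP38: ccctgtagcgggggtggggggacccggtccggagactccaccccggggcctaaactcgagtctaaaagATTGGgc

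The palindrome TGACGTCA, the element that CREM and CREB proteins bind, was in none of these 4 windows. Those of CREM and RPP38 hold only 195 and 75 bases. Another listed start of CREM, 69.1 kb inside the gene, has the palindrome once in the 250 bases before it. Among 250-base windows before the start, TGACGTCA was in 3 of 56 matched members (MASTL, MCM10 and SUV39H2, 5.36%) and in 1.65% of 35116 windows of all genes. GGGCGG or CCGCCC was in 69.6% of members and 42.6% of all windows. CCAAT or ATTGG was in 33.9% and 32.0%, and TATAAA or TTTATA in 3.57% (DCLRE1C and PRKCQ) and 10.7%. The members' windows had a median GC content of 66.4%, against 58.0% over all windows, and DCLRE1C had the lowest of all members at 45.6%. The windows of all genes include several listed starts for some genes and were not limited by transcript level. Each member instead has only the window of its chosen start. Whether the members' shares or GC content differ from those of main starts of genes at similar levels was not tested. All these shares are matches of letters on both strands, not measured binding sites.

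Other members at the low end were lower at 1 time more than at the other. OPTN encodes optineurin, an autophagy receptor. It had 9.55 and 17.6 CPM at 48 h and 0.897 and 5.48 CPM at 24 h, log2 ratios of -0.87 and -2.48. MAP3K8 encodes the kinase TPL2, which acts in inflammatory signalling. It was counted at 7.98 and 18.2 CPM at 48 h and at 6.21 and 18.7 CPM at 24 h, log2 -1.18 and -1.57. STAM, an endosomal sorting adaptor first found in cytokine receptor signalling, had 4.91 and 16.3 CPM and then 4.76 and 9.30 CPM, log2 -1.71 and -0.95. COMMD3, a subunit of an endosomal recycling complex, had 6.84 and 16.7 CPM and then 3.83 and 7.72 CPM, log2 -1.28 and -0.99. In each of these genes both ΔOGT-ISS libraries read below the WT library of the same time. COMMD3 and BMI1 are joined in an annotated readthrough gene, which itself had at most 1 count in any library.

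Members nearest the median were VIM, WAC and YME1L1, all from RSU1 to CCNY. VIM encodes vimentin, the intermediate filament protein of lymphocytes and mesenchymal cells, and had 418 and 644 CPM at 48 h and 284 and 532 CPM at 24 h, log2 -0.62 and -0.91. WAC, a regulator of histone H2B ubiquitination, had 72.2 and 106 CPM and then 65.0 and 123 CPM, log2 -0.55 and -0.92. YME1L1, a protease of the inner mitochondrial membrane, had 104 and 174 CPM and then 81.3 and 144 CPM, log2 -0.74 and -0.82. VIM was also among the most abundant members per length, at 134 to 290 FPKM (the deposited fragments per length and depth) over the 4 libraries, and GDI2, a regulator of Rab GTPases, had 112 to 284 FPKM. The lowest of the 51 by mean FPKM was TRDMT1, a tRNA methyltransferase, at 0.518 to 0.974 FPKM.

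Of the 51 members, those with a mean ratio above 0 lie in the 2 stretches of smaller shift, which were delimited with these ratios known. DCLRE1C encodes Artemis, the nuclease that opens hairpins in V(D)J recombination and double-strand break repair. It had 69.2 and 60.4 CPM at 48 h and 51.6 and 49.5 CPM at 24 h, log2 ratios of 0.20 and 0.06. RPP38, a protein subunit of ribonuclease P, had 9.55 and 8.99 CPM and then 8.42 and 7.11 CPM, log2 0.09 and 0.24. Both counting intervals of RPP38, 0.800 to 1.41 and 0.971 to 1.45, held 1. The 24 h interval of DCLRE1C, 0.966 to 1.13, held 1 too, and its 48 h interval was 1.03 to 1.28.

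WDR37, a WD repeat protein, had 20.6 and 20.8 CPM and then 26.6 and 27.9 CPM, log2 -0.02 and -0.07. Its mean ratio of -0.04 turned to 0.00368 with scaling to total counts only, and also changed sign with the deposited FPKM, so no direction is given for it. PITRM1, a peptidase of the mitochondrial matrix, had 45.7 and 47.9 CPM and then 37.9 and 41.8 CPM, log2 -0.07 and -0.14. NET1, a guanine nucleotide exchange factor, had 128 and 141 CPM at 48 h and 106 and 92.7 CPM at 24 h, log2 -0.14 and 0.20. PRKCQ had 109 and 139 CPM and then 83.4 and 83.9 CPM, log2 -0.34 and -0.01. These 4 genes lie from GTPBP4 to PRKCQ, and the largest difference among them at either time was that of PRKCQ at 48 h.

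By role, each group of members had a median below 0. The 9 chromatin and transcription members, among them BMI1, a Polycomb protein, and ZEB1, a repressor of lymphoid and epithelial genes, had a median mean ratio of -0.81 and 8 of 9 were below 0 at both times. BMI1 had read counts of 285 and 604 at 48 h and 714 and 1033 at 24 h. ZEB1 had 17.1 and 37.3 CPM and then 16.2 and 33.1 CPM, log2 -1.12 and -1.03. The 6 cytoskeleton and traffic members had a median of -0.97 and the 13 tested signalling members -0.86. The 8 of replication, repair and cell cycle had -0.68, and the 6 tested of mitochondria and metabolism -0.62. In that order, 6 of 6, 8 of 13, 7 of 8 and 5 of 6 were below 0 at both times. The 3 tested members with other roles had -0.22. The 11 RNA processing and translation members had -0.45, and 9 of 11 were below 0 at both times. The roles follow the stretches in part: GTPBP4, RBM17, PRPF18, HSPA14, SEPHS1 and RPP38, all of the RNA processing group, lie in the 2 stretches of smaller shift.

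The line ratio of some members differed between the times, a difference that rests on 1 library per line and time and has no test. SUV39H2, a histone H3 lysine 9 methyltransferase, had 26.5 and 58.1 CPM at 48 h and 36.4 and 35.7 CPM at 24 h, log2 -1.13 and 0.03. KIN, a DNA-binding protein of replication, went the other way, with 10.9 and 11.9 CPM and then 5.76 and 11.5 CPM, log2 -0.13 and -0.98. DNAJC1, a chaperone of the endoplasmic reticulum, had 22.3 and 30.7 CPM and then 15.9 and 38.9 CPM, log2 -0.45 and -1.29. Over the 51 members with at least 5 CPM the median of the 24 h ratio minus the 48 h ratio was 0.01.

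Members counted on few reads had some of the widest ratios. CAMK1D, a calcium-dependent kinase, had 6 counts in ΔOGT-ISS and 50 in WT at 48 h, and 24 and 19 at 24 h. APBB1IP, an adaptor that activates integrins, had 6 and 0 counts and then 43 and 60. ARHGAP12 had 29 and 40 and then 107 and 42. OTUD1, a deubiquitinase, had 58 and 85 and then 29 and 138. With PHYH these are the 5 tested members with a mean under 5 CPM, and 4 of them, CAMK1D, PHYH, APBB1IP and ARHGAP12, had ratios of opposite sign at the 2 times. With them the SD of the mean ratio over members was 0.53, and without them 0.46.

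The 2 pairs of members that start within 500 bases of each other on opposite strands had close ratios. NUDT5, a nucleotide sugar hydrolase, and CDC123, an assembly factor of translation initiation factor eIF2, start 179 bases apart and had mean ratios of -0.98 and -0.97. YME1L1 and MASTL, the Greatwall kinase of mitosis, start 442 bases apart and had -0.78 and -0.81. WDR37 and IDI1, 368 bases apart, had -0.04 and -0.57, the widest difference among the 6 such pairs with a member. Both pairs of members overlap and the strand setting of the counting is not given, so reads of the overlaps cannot be assigned with certainty. In all 22 of the 59 members overlap another tested gene, and for 12 that gene had at least 0.1 of the member's level, among them DCLRE1C with SUV39H2 and RPP38 with NMT2.

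**Figure D4:**
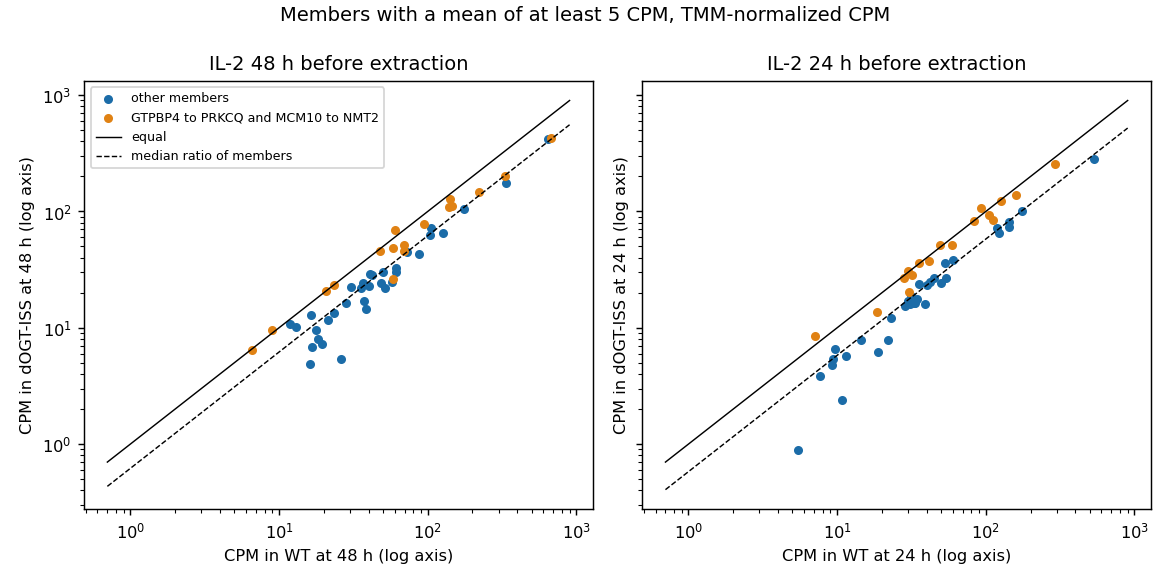
TMM-normalized CPM of the 51 members in WT (horizontal axis, log) and ΔOGT-ISS (vertical axis, log) at 48 h (left) and 24 h (right); the solid line marks equal levels and the dashed line the members' median ratio at that time. Orange points, the 2 stretches of smaller shift, lie mostly between the lines or near the solid one, and most blue points lie along the dashed line over the whole range of levels.

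Few members passed the gene-by-gene test for the line that the choice rests on. With edgeR, 2 of 56 members, ARHGAP21 and CREM, had an adjusted p under 0.05, both lower in ΔOGT-ISS. Of all 17492 genes tested 0.314% were called lower and 0.463% in either direction. At an unadjusted p under 0.05 the counts were 35 of 56 members and 9.08% of all genes. Since this contrast chose the members nothing is read from these shares. The count of members depended on the tool. DESeq2 called 16 members, and 303 of 13083 genes in all. Without a filter on low counts edgeR called 28 members, and 546 of 43630 genes in all. With limma on log2 FPKM 0 members were called, with 30 at an unadjusted p under 0.05. That fit called 0 of 17331 genes, so its 0 does not set members apart from other genes. Leaving out any 1 of the 4 libraries leaves 1 line with a single library, so those fits cannot show whether the calls hold.

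Genes of the same families as members, but outside the set, were read for comparison. Of 37 listed paralogues, 34 were tested apart from IL2RA, and their median mean ratio was 0.04, with 10 below 0 and 10 above 0 at both times. None passed the line test with edgeR or DESeq2, and 3 had an unadjusted edgeR p under 0.05. The highest were KIF5A, a neuronal kinesin, at 2.04 on few counts (37 in ΔOGT-ISS and 4 in WT at 48 h, 42 and 13 at 24 h) and ZEB2, the paralogue of ZEB1, at 0.65. The lowest were ARHGAP23 at -0.77 and NSUN5 at -0.60. ZEB2 was counted at 46.3 and 22.5 CPM at 48 h and at 27.1 and 22.5 CPM at 24 h, above WT at both times, whereas ZEB1 was below WT at both.

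The IL-2 time was not used to choose the members and could be tested. With edgeR, 11 of 56 members were lower at 24 h than at 48 h and 2 were higher at an adjusted p under 0.05, against 10.9% of all genes lower and 15.0% higher. The members' median log2 difference, 24 h over 48 h, was -0.36, against 0.05 over 12078 protein-coding genes. It was -0.43 in WT and -0.34 in ΔOGT-ISS, and 39 of 56 members were below 0 in both lines. The 11 that fell were OPTN, ARHGAP21, COMMD3, PRPF18, GDI2, HSPA14, KIF5B, CREM, RBM17, MTPAP and PRKCQ, and the 2 that rose were NMT2 and CCNY. The time coincides with depth, and nothing says the libraries came from separate cultures, so the p-values rest on the spread of these 4 libraries alone, which may be technical.

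**Figure D5:**
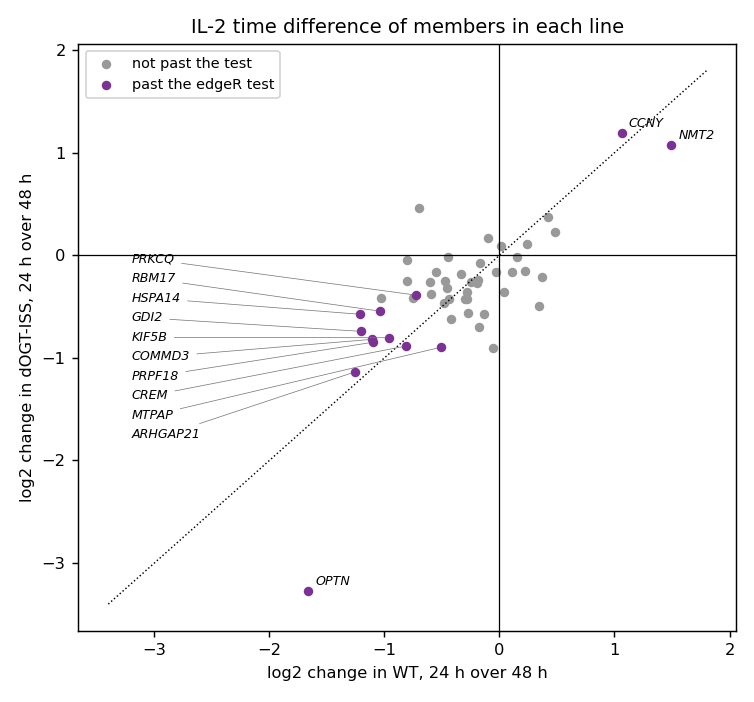
Log2 change from 48 h to 24 h in WT (horizontal axis) and ΔOGT-ISS (vertical axis) for the 51 members with at least 5 CPM; purple points passed the edgeR test for time and the dotted line marks equal change. All 11 named decreases and both increases have the same sign in the 2 lines.

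Among the members that passed the test OPTN changed most, by a log2 difference of -2.46 (SE 0.45, edgeR adjusted p = 0.00703). In ΔOGT-ISS it was 9.55 CPM at 48 h and 0.897 CPM at 24 h, and in WT 17.6 and 5.48 CPM. ARHGAP21 fell by 1.22 (SE 0.27, edgeR adjusted p = 0.0144), COMMD3 by 0.98 (SE 0.30, adjusted p = 0.0446) and PRPF18, a splicing factor, by 0.98 (SE 0.17, adjusted p = 0.00607). CREM fell by 0.85 (SE 0.21, edgeR adjusted p = 0.0198), and GDI2 by 0.97 (SE 0.18, adjusted p = 0.00704). NMT2, an N-myristoyltransferase, rose by 1.30 (SE 0.27, edgeR adjusted p = 0.0120), with 6.49 and 13.8 CPM at 48 h and 24 h in ΔOGT-ISS and 6.53 and 18.6 CPM in WT. CCNY, the cyclin of the kinase CDK14, rose by 1.13 (SE 0.20, edgeR adjusted p = 0.00548), with 11.6 and 26.6 CPM at these times in ΔOGT-ISS and 21.5 and 44.9 CPM in WT. ARHGAP21 and CREM, the 2 of the 51 members more than 0.5 below the median line ratio at both times, were also lower at 24 h than at 48 h in both lines. The count of 13 calls was 4 with the time as the only term, where 18.8% of all genes were called. With limma on log2 FPKM it was 8, where 26.2% of all genes were called. Leaving out any 1 of the 4 libraries leaves 1 time with a single library, so such fits cannot show whether the time calls hold.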

How the data were processed

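Total RNA of the 4 NK-92 libraries was depleted of ribosomal RNA and sequenced, per the labels' protocols. The authors deposited whole-number read counts per Ensembl gene, not normalized, and a table of FPKM computed by the authors from counts, a length per gene and the library's counts, which lacks 1188 of the 61860 identifiers. Per the submitters' processing notes the build was hg38 and the tools included HISAT2 2.2.0, SAMtools 1.15.1 and featureCounts 2.0.1. Whether strand was used, and how reads with several matches were counted, is not stated in them.

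Members were matched by symbol and Ensembl identifier, with positions from GENCODE release 29 (GRCh38). The members, role groups, paralogues and stretches were chosen with earlier results of these data known. edgeR 4.0.16 (R 4.3.3) fitted quasi-likelihood models with TMM scaling, adding a term for the line to one for the IL-2 time, which leaves 1 residual degree of freedom. filterByExpr with a minimum count of 10 kept 17492 genes, over which two-sided p-values were adjusted (Benjamini-Hochberg, threshold 0.05). The script was tested on simulated data. Line ratios at each time are on the log2 scale, from CPM after TMM scaling and a prior count of 2. Intervals are exact conditional binomial 95% intervals. They and the limit of 3 counts for a count of 0 cover counting error only. The labels give no replicate numbers: number 1 was assigned here to the 48 h libraries and number 2 to the 24 h libraries.

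Members named were, at a mean of at least 5 CPM, the 6 lowest and 6 highest mean ratios, the 3 nearest the median, the 4 with the largest difference between times, up to 4 in each direction past the time test, at least 1 of each role and 6 lymphocyte genes. The others were named by stretch. Alternatives were DESeq2 1.42.0, limma 3.58.1, other scalings, prior counts and filters, FPKM, and leaving out libraries.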

Additional observations from a re-analysis of the deposited data

Results flagged for a closer look

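Of the 56 tested members, 8 had line ratios of opposite sign at the 2 times, with 1 library per line and time. For 2 of these, NET1 and APBB1IP, the 95% counting intervals lay on opposite sides of 1. This difference was not tested. NET1 had a log2 ratio of -0.14 at 48 h and 0.20 at 24 h, a difference of 0.34. Its 95% counting intervals were 0.845 to 0.978 and 1.09 to 1.21. At 48 h APBB1IP had 6 counts in ΔOGT-ISS and none in WT, and at 24 h it had 43 and 60. This is a difference between the ratios of -3.26 that depends on the prior count, since WT had no count at 48 h.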

How the results depend on the processing

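The median line difference of members, -0.75, moved by more than the spread between the times to -0.59 with log2(FPKM + 1), and was -0.67 and -0.76 when 1 time was left out; the other scalings, prior counts and filters left it within that spread. The SD of the line difference over members, 0.53, was 0.60 with a prior count of 0.5, 0.35 with log2(FPKM + 1), 0.35 at a mean of at least 20 CPM, 0.46 at a mean of at least 5 CPM, a minimum chosen after seeing the data, and 0.63 to 0.70 when 1 time was left out. Medians of the stretches, also added after seeing the data, were -0.27 to -0.14 when 1 time was left out (GTPBP4 to PRKCQ, -0.23), -0.30 to 0.018 (MCM10 to NMT2, -0.28, so its direction turned at 24 h) and -0.90 to -0.78 (RSU1 to CCNY, -0.86, and -0.72 with log2(FPKM + 1)). The median of other 10p genes, -0.73, was -0.74 with DESeq2 size factors and -0.67 at 20 CPM. Calls for the IL-2 time, 13 where 25.9% of all genes were called, were 8 with limma (26.2% of all genes). They were 4 with the time alone and no replicate block (18.8% of all genes). Calls for the line, 2 (81 of 17492 genes in all), were 6 with DESeq2 size factors (154 of 17492) and 28 without a filter (546 of 43630). With DESeq2 they were 16 (303 of 13083 genes in all), and with limma 0. They were also 0 with the line alone and no replicate block (13 at an unadjusted p under 0.05 by edgeR). Limma and the line alone called 0 of all genes tested. Fits without a single library cannot be read for the line or the time, since 1 line and 1 time then have 1 library each. The cause of these moves was not tested. The IL-2 time is the only pairing of libraries and is a term of the fit. Of 24 named members, 1 changed sign by more than the spread between its times. WDR37, at -0.04, was 0.00368 with total counts only, 0.00161 with log2(FPKM + 0.1) and 0.000613 with log2(FPKM + 1). Others changed sign within that spread, among them NET1, IL15RA and SUV39H2. NET1, at 0.03, was -0.0147 without a filter on low counts and -0.14 at 48 h alone. IL15RA, at -0.29, was 0.00181 at 48 h alone, and SUV39H2, at -0.55, was 0.027 at 24 h alone. Depth limits the 48 h ratios most.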
